A study of Mus musculus with 12 samples.

Results

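Plac9a, Plac9b, Dynlt1a, Dynlt1b, Dynlt1c and Dynlt1f are the copies of 2 mouse gene families that lie in tandem and are almost the same in sequence. They were taken by name from a table of 20614 genes measured in isolated mouse astrocytes, and all 6 were found, 2 of the Plac9 family and 4 of the Dynlt1 family. The members were chosen by measured values of these libraries. The contrast used for the choice was not stated and is assumed to be Cd38-/- against Cd38+/-. Plac9b and Dynlt1b were the only genes called higher in Cd38-/- than in Cd38+/- astrocytes. The differences of the members between genotypes and their relation to the cilium genes Foxj1 and Dynlrb2 are therefore given as a description, with no test.

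The question of the study was how loss of CD38, an ectoenzyme that consumes NAD, changes astrocytes. RNA of astrocytes was sequenced in 12 libraries, 3 of wild type Cd38+/+, 3 of heterozygous Cd38+/- and 6 of Cd38-/- mice, all male, bred from C57BL/6J and 12 to 14 months old. The knockout allele disrupts Cd38 in every cell of the animal. Midbrain regions (striatum, thalamus and substantia nigra) were dissociated, endothelial cells, myelin and CD11b+ microglia were depleted with magnetic beads, and astrocytes were captured through the surface antigen ACSA-2. The targeted gene was measured at 105 to 149 TPM (a level per transcript length, scaled to the same total in each library) in Cd38+/+, 90.4 to 90.8 TPM in Cd38+/- and 8.54 to 21.9 TPM in Cd38-/- libraries. Between 13160 and 13516 genes were above 0 in the Cd38+/+ libraries, against 15920 to 17906 in the other 9. The astrocyte marker list (12 genes, such as Aqp4 and Slc1a2) summed to 14096 to 20018 TPM in Cd38+/+, 20389 to 23021 TPM in Cd38+/- and 15552 to 20801 TPM in Cd38-/-. Of the defining markers of other cells, Cx3cr1 and Tmem119 (microglia), Th (dopaminergic neurons), Mog (oligodendrocytes) and Kl (choroid plexus) were listed at 0 in all 3 Cd38+/+ libraries. Other markers of these lists were present there. In Cd38+/+ the lists summed to 98.4 to 102 TPM for microglia and 60.7 to 65.4 TPM for neurons. The sums were 1145 to 6040 TPM for oligodendrocytes, 138 to 337 TPM for choroid plexus and 412 to 1933 TPM for endothelial cells. Over the 12 libraries, marker sums ran from 138 to 7587 TPM for choroid plexus, from 1145 to 14282 TPM for oligodendrocytes and from 3228 to 34711 TPM for erythroid cells (mainly haemoglobin genes), the last with its highest median in Cd38+/+.

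DYNLT1, also called Tctex1, is a light chain of cytoplasmic dynein, the motor that carries cargo towards the minus ends of microtubules. It sits as a dimer on the dynein intermediate chain, and related light chains are also built into the dyneins of cilia and flagella. Humans have a single DYNLT1 gene, whereas the mouse has several copies next to each other. Plac9 (placenta-specific 9) encodes a short protein with a signal peptide, and much less is known of its role. Motile cilia of the brain are borne by ependymal cells that line the ventricles. FOXJ1 is the transcription factor that switches on the genes of motile cilia, and DYNLRB2 is a roadblock-type dynein light chain abundant in ciliated cells.

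On GRCm38 (mm10) with GENCODE vM21 genes, the Plac9 copies lie on the minus strand of chromosome 14 and span 295 kb: Plac9a (ENSMUSG00000095304) at chr14:25887506-25903100 and Plac9b (ENSMUSG00000072674) at chr14:26167405-26182480. A further copy, Gm9780, is annotated between them at chr14:26027282-26042711. Its sequence was compared below, but its level was not analysed here and is in no sum. The Dynlt1 copies lie on chromosome 17 within 350 kb, on both strands: Dynlt1a (ENSMUSG00000092074) at chr17:6306340-6317500 on the minus strand, Dynlt1b (ENSMUSG00000096255) at chr17:6430112-6436296 on the plus strand, Dynlt1c (ENSMUSG00000000579) at chr17:6601671-6609774 on the plus strand and Dynlt1f (ENSMUSG00000095677) at chr17:6646602-6655900 on the minus strand. Dynlt1a overlaps Tmem181a on the opposite strand by 1975 bases, and the cDNA kit does not mark strand, so reads of the overlap cannot be told apart. Plac9b lies whole inside Cphx3 on the opposite strand, a gene at no more than 2.16 TPM in any library.

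**Figure D1:**
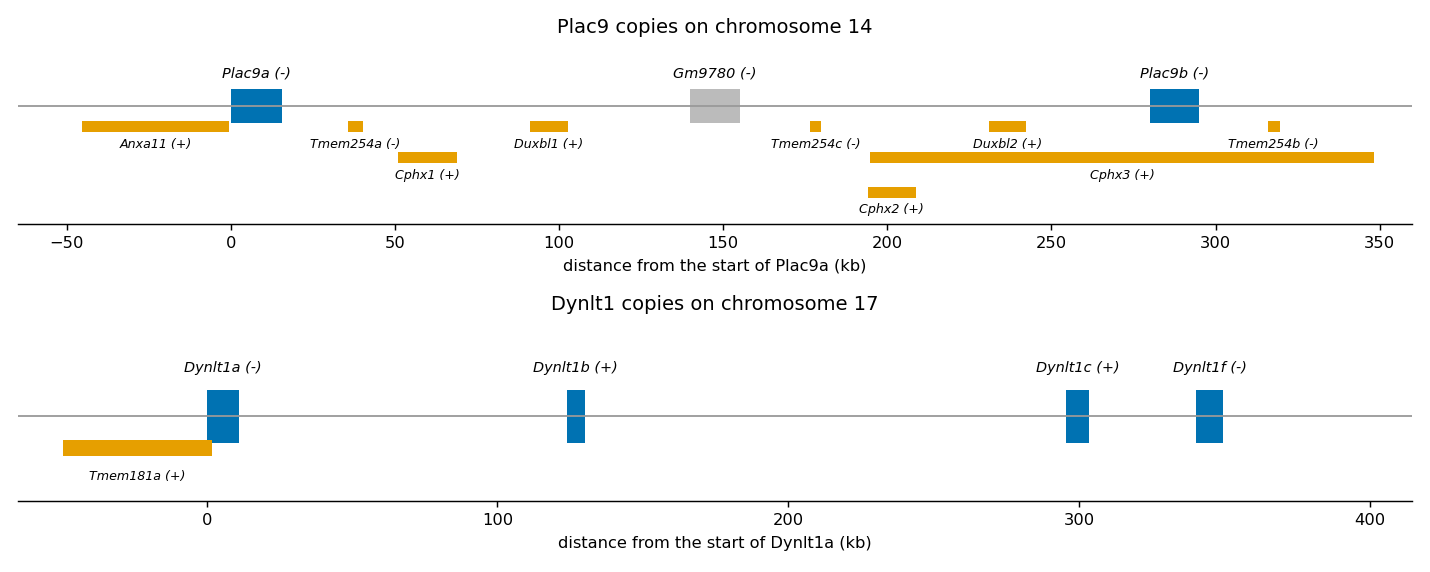
Positions of the copies (blue), of the further annotated copy Gm9780 (grey) and of other genes in the table that lie whole within the drawn stretch (orange), with distance from the start of the leftmost copy in kb on the horizontal axis and the strand in brackets. The copies are 36.8 to 165 kb apart in the Dynlt1 family, and Plac9a and Plac9b have Tmem254 copies close by.

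The coding sequences show how alike the copies are, which bears on every value given per copy. The coding sequence of Plac9a is 327 bases long and has 0 differences from those of Plac9b and of Gm9780. The coding sequences of Dynlt1a, Dynlt1c and Dynlt1f are 342 bases long and identical. Dynlt1b differs from them at 1 base, C21A (Dynlt1a base first, counted from 1 at the A of the start codon), which is the third position of codon 7. The stretches below are bases 1 to 300 of each shared coding sequence and bases 1 to 60 of Dynlt1b, 5′ to 3′, and the capital letter marks the base that differs.
Plac9a and Plac9b: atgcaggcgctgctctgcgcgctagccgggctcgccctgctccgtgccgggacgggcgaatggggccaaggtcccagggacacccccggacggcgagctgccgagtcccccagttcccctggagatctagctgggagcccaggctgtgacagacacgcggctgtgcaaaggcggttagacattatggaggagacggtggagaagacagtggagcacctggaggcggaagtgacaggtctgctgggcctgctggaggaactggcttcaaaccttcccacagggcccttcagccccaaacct
Dynlt1a, Dynlt1c and Dynlt1f: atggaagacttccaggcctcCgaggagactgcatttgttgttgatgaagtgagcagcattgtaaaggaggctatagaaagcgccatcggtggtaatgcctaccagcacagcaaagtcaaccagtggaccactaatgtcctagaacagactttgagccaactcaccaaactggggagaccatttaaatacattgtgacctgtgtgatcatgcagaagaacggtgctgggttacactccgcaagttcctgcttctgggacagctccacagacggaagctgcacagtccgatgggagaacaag
Dynlt1b: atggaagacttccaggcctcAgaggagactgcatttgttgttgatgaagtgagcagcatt

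The copies were also compared over whole annotated transcripts, coding part included. Of their 100-base windows, 82.0% for Dynlt1b, 79.7% for Dynlt1c, 78.0% for Dynlt1f and 47.4% for Dynlt1a occurred in another copy of the family. Only 0.344% for Plac9a (6 of 1744) and 3.46% for Plac9b (44 of 1273) occurred in no other gene, and this share was 18.0% for Dynlt1b (121 of 672), 19.3% for Dynlt1c, 22.0% for Dynlt1f and 45.3% for Dynlt1a. A read from a shared stretch is divided among the copies by the model that the authors used (RSEM), so the split among the copies is an estimate. The sum over a family keeps such reads together but is not free of the split, since TPM divides reads by transcript length. Annotated transcripts are 771 bases long for Dynlt1b and 493 to 3250 bases for Dynlt1c. The sums have a further limit, since stretches are also shared with genes outside them. Plac9a shares 74.3% of its windows with Gm9780, and 222 of the 672 windows of Dynlt1b also occur in the pseudogene Dynlt1-ps1. RefSeq promoters (250 bases before to 50 after the start on GRCm38.p6) were found for 4 of the 6 members. Those of Plac9a and Plac9b were the same over their 222 aligned bases, and those of Dynlt1c and Dynlt1f over 189 of 192. The letters GTTGCC, on either strand, the core of the X-box bound by RFX factors of cilium genes, occurred in both Plac9 promoters and in 12.5% of all 32851 promoters. The different string GGAAAC occurred in both Dynlt1 promoters, which held no GTTGCC, and in 19.2% of all promoters. The forkhead letters GTAAACA occurred in none of the 4 and in 3.65% of all promoters. These matches describe letters in a window and do not show binding.

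The Plac9 family sum was highest in Cd38-/- astrocytes. It was 946, 1102 and 1714 TPM in the 3 Cd38+/+ libraries, 688, 1022 and 704 TPM in the 3 Cd38+/- libraries, and between 1433 and 2578 TPM (median 1946) in the 6 Cd38-/- libraries. All 6 Cd38-/- libraries were above the 3 Cd38+/- libraries, whereas Cd38+/+ replicate 3 lay within their range. The means were 1254 ± 406 (SD, n = 3), 804 ± 188 (SD, n = 3) and 1990 ± 427 TPM (SD, n = 6). On the log2(TPM + 1) scale the sum was 1.30 higher (SE 0.19, 2.47-fold) in Cd38-/- than in Cd38+/-. It was 0.69 higher (SE 0.21) in Cd38-/- than in Cd38+/+ and differed by -0.62 (SE 0.24) between Cd38+/- and Cd38+/+, or by -0.37 without Cd38+/+ replicate 3. Both of the last comparisons use the same 3 Cd38+/+ libraries. The median over all genes tested was -0.02, 0.15 and 0.18 in these comparisons, and after median-ratio scaling of the libraries -0.01, 0.03 and 0.05. In RNA of pooled cells, more cells of a type and more RNA per cell cannot be told apart.

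The Dynlt1 family sum had the same order of genotypes with a smaller spread. The 3 Cd38+/+ libraries had 281, 442 and 344 TPM, the 3 Cd38+/- libraries 289.7, 288.9 and 292.1 TPM, and the 6 Cd38-/- libraries between 385 and 493 TPM (median 443). The Cd38+/- libraries lay within 4 TPM of each other and below every Cd38-/- library, and Cd38+/+ replicate 2 was within the range of the Cd38-/- libraries. The means were 356 ± 81.0 (SD, n = 3), 290.2 ± 1.64 (SD, n = 3) and 444 ± 36.0 TPM (SD, n = 6). The sum was 0.61 higher on the log2 scale (SE 0.089, 1.52-fold) in Cd38-/- than in Cd38+/-, 0.34 higher (SE 0.14) than in Cd38+/+, and differed by -0.27 (SE 0.18) between Cd38+/- and Cd38+/+. The last 2 values moved with single Cd38+/+ libraries. Without replicate 1 they were 0.18 and -0.42, and without replicate 2 the second was -0.10. With median-ratio scaling they were 0.22 and -0.41.

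**Figure D2:**
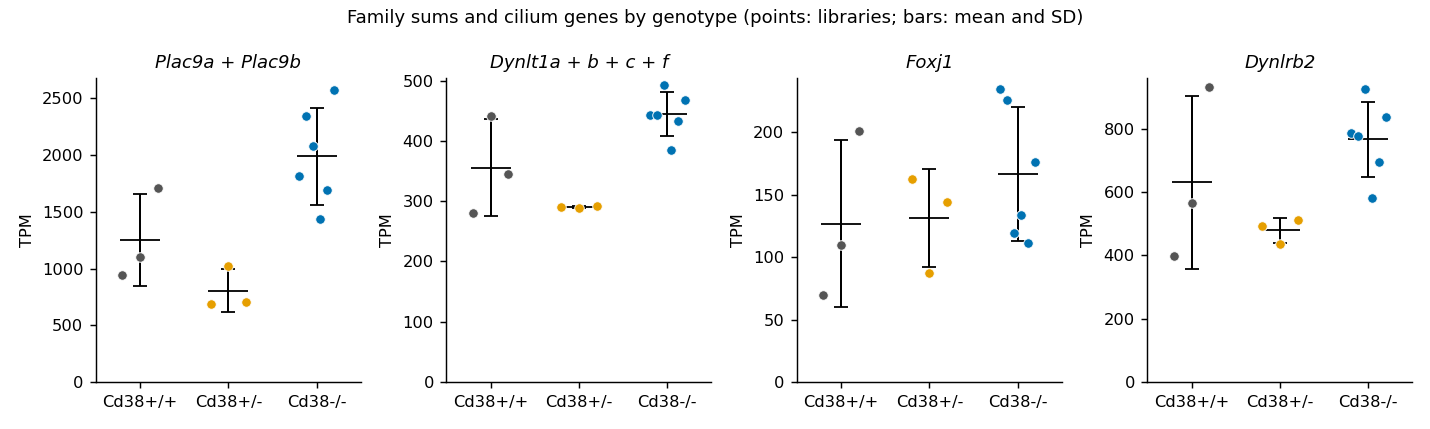
TPM of both family sums and of the cilium genes Foxj1 and Dynlrb2 (vertical axes, each starting at 0) in the 3 Cd38+/+, 3 Cd38+/- and 6 Cd38-/- libraries; points are libraries and bars the mean with SD. Every Cd38-/- library is above every Cd38+/- library for both sums and for Dynlrb2, but not for Foxj1.

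Plac9b was the most abundant member in every library. Its level was 904, 1040.3 and 1598 TPM in Cd38+/+, 632, 950.5 and 656 TPM in Cd38+/-, and 1342 to 2418 TPM (median 1821) in Cd38-/-. The Cd38-/- and Cd38+/- libraries did not overlap, and the log2 difference was 1.32 (SE 0.19). Against Cd38+/+ it was 0.67 (SE 0.21), with overlap. Plac9a stood at 41.5, 61.8 and 116 TPM in Cd38+/+, 55.6, 71.4 and 47.7 TPM in Cd38+/-, and 91.0 to 160.0 TPM (median 125) in Cd38-/-. It too was higher in all 6 Cd38-/- than in all 3 Cd38+/- libraries, with a log2 difference of 1.09 (SE 0.18), and it overlapped with Cd38+/+ at a log2 difference of 0.87 (SE 0.27).

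Dynlt1b was the copy of its family with the clearest separation by genotype. It was measured at 154, 217 and 114 TPM in Cd38+/+, 151, 158 and 152 TPM in Cd38+/-, and 236 to 294 TPM (median 249.9) in Cd38-/-. All 6 Cd38-/- libraries were above all 6 other libraries, by 0.74 (SE 0.089) on the log2 scale against Cd38+/- and 0.72 (SE 0.17) against Cd38+/+. Dynlt1f was at 90.4, 181 and 135 TPM in Cd38+/+, at 86.3, 93.9 and 99.2 TPM in Cd38+/- and at 108 to 148 TPM (median 134) in Cd38-/-. Its Cd38-/- libraries were above the Cd38+/- libraries, by 0.50 (SE 0.11) on the log2 scale, and within the range of the Cd38+/+ libraries, from which they differed by 0.02 (SE 0.19).

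The remaining copies overlapped between all genotypes. Dynlt1c was at 35.8, 39.4 and 91.3 TPM in Cd38+/+, 47.9, 33.0 and 37.8 TPM in Cd38+/- and 35.4 to 59.0 TPM (median 46.8) in Cd38-/-, where Cd38+/+ replicate 3 was the highest of the 12 libraries. Its log2 difference was 0.28 (SE 0.17) between Cd38-/- and Cd38+/- and -0.08 (SE 0.28) between Cd38-/- and Cd38+/+. Dynlt1a was near the lower limit of expression, at 1.04, 4.49 and 4.11 TPM in Cd38+/+, 4.86, 3.56 and 3.51 TPM in Cd38+/- and 4.34 to 6.37 TPM in Cd38-/-. It passed the filter (a mean above 5 TPM in a compared genotype) only through its Cd38-/- libraries, so 5 of the 6 members were tested between Cd38+/- and Cd38+/+ and all 6 in the other comparisons. Its log2 difference was 0.36 (SE 0.19) against Cd38+/- and 0.71 (SE 0.40) against Cd38+/+; the latter became -0.16 under quantile normalization and 0.25 without Cd38+/+ replicate 1. TPM is a level per length, and by these estimates, which rest on the division of shared reads, the order in Cd38-/- libraries was Plac9b, Dynlt1b, then Dynlt1f and Plac9a with overlapping ranges, then Dynlt1c and Dynlt1a.

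**Figure D3:**
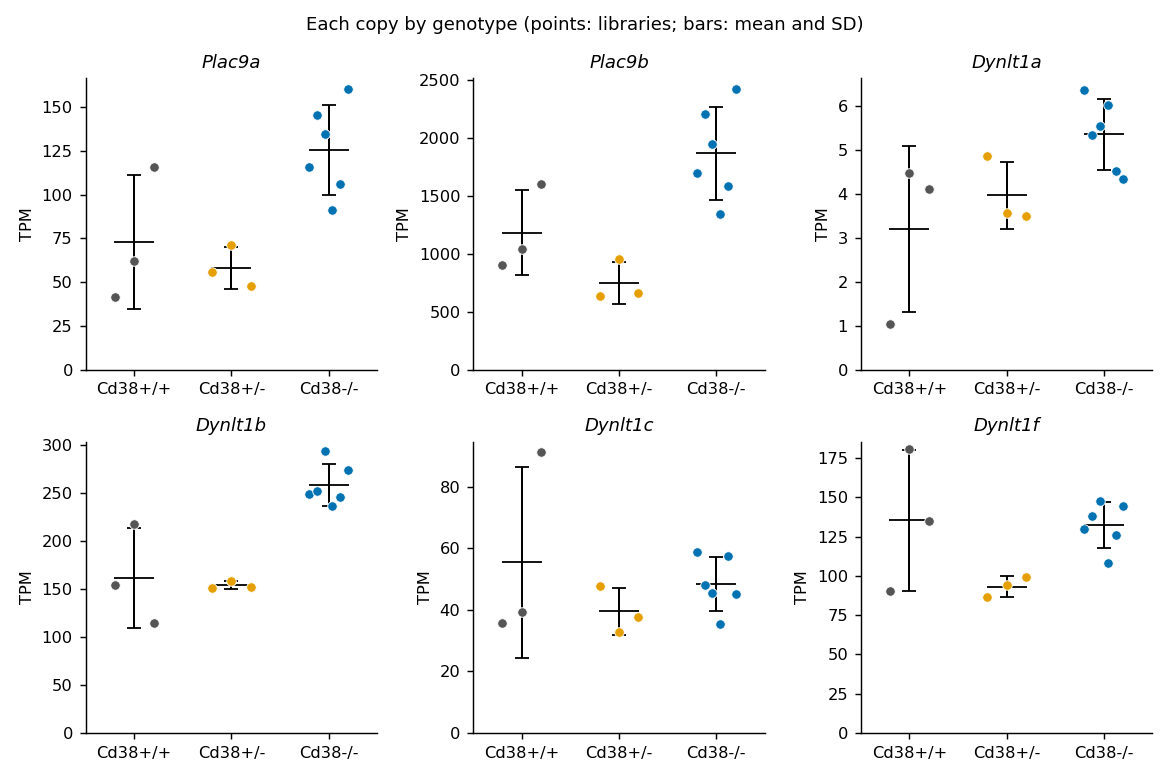
TPM of each copy (vertical axes, each starting at 0) by genotype; points are libraries and bars the mean with SD (n = 3, 3 and 6). Plac9a, Plac9b, Dynlt1b and Dynlt1f have no overlap between Cd38-/- and Cd38+/-, and of these only Dynlt1b has none between Cd38-/- and Cd38+/+.

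A gene was called a differentially expressed gene (DEG) where limma gave a Storey q under 0.05 over all genes tested and a change of at least 1.2-fold. Between Cd38-/- and Cd38+/-, 2 members (Plac9b and Dynlt1b) were called, against 0.0346% of all genes (4 of 11563, the others being Cd38 and Dram2, both lower), and 4 of 6 members were higher with no overlap, against 2.85% of all genes. Since this contrast is assumed to have chosen the members, nothing is read from these counts. Against Cd38+/+, 1 member (Dynlt1b) was called in Cd38-/-, against 8.28% of all genes, and the same member alone was higher with no overlap, against 8.21%. When Cd38+/- was set against Cd38+/+, 0 of 5 members were called by limma, as were 0% of all genes, although 1586 of 11763 genes had an unadjusted p under 0.05. There 0 members were without overlap, against 22.5% of all genes.

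These calls depended on single libraries. When each of the 9 libraries of the Cd38-/- and Cd38+/- comparison was left out in turn, Plac9b was called in 1 fit, the one without Cd38-/- replicate 4. Its log2 difference stayed between 1.21 and 1.50. Dynlt1b was called in 4 of the 9 fits and was lost without any of the 3 Cd38+/- libraries or without Cd38-/- replicate 2 or 6, at log2 differences of 0.70 to 0.77. Against Cd38+/+, Dynlt1b was called in 5 of 9 such fits and was lost without Cd38-/- replicate 1, 2, 5 or 6, at log2 differences of 0.49 to 0.95.

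The division of a family among its copies was close to constant for Plac9 and less so for Dynlt1. Plac9b made up 93.7 ± 0.104% of the Plac9 sum in Cd38-/-, 92.7 ± 0.699% in Cd38+/- and 94.4 ± 1.18% in Cd38+/+ (SD, n = 6, 3 and 3). Among the Cd38-/- libraries the ratio of Plac9b to Plac9a ran only from 14.5 to 15.1. The SD of its log2 was 0.025, while that of each copy was 0.30 and 0.31. The 2 copies share 70.5% and 96.5% of their 100-base windows with each other, so their levels are not independent measurements.

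In the Dynlt1 family, Dynlt1b held 58.1 ± 2.03% of the sum in Cd38-/-, 52.9 ± 1.67% in Cd38+/- and 45.7 ± 11.2% in Cd38+/+ (SD, n = 6, 3 and 3). Dynlt1f held 29.8 ± 1.16%, 32.1 ± 2.11% and 37.4 ± 4.61% in the same order. Dynlt1c held 10.9 ± 1.94%, 13.6 ± 2.63% and 16.1 ± 9.26%, and Dynlt1a between 0.37 and 1.68% in any library. The spread of Dynlt1b and Dynlt1c in Cd38+/+ came with replicate 3, where Dynlt1c was at 26.5% and Dynlt1b at 33.1% of the sum. Without that library the Cd38+/+ means were 10.8% for Dynlt1c and 51.9% for Dynlt1b. For Dynlt1f, Cd38+/+ replicate 1 was the lowest at 32.2%, beside 40.9% and 39.1% in replicates 2 and 3. Whether these shares follow the RNA or the division of shared reads cannot be told apart.

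**Figure D4:**
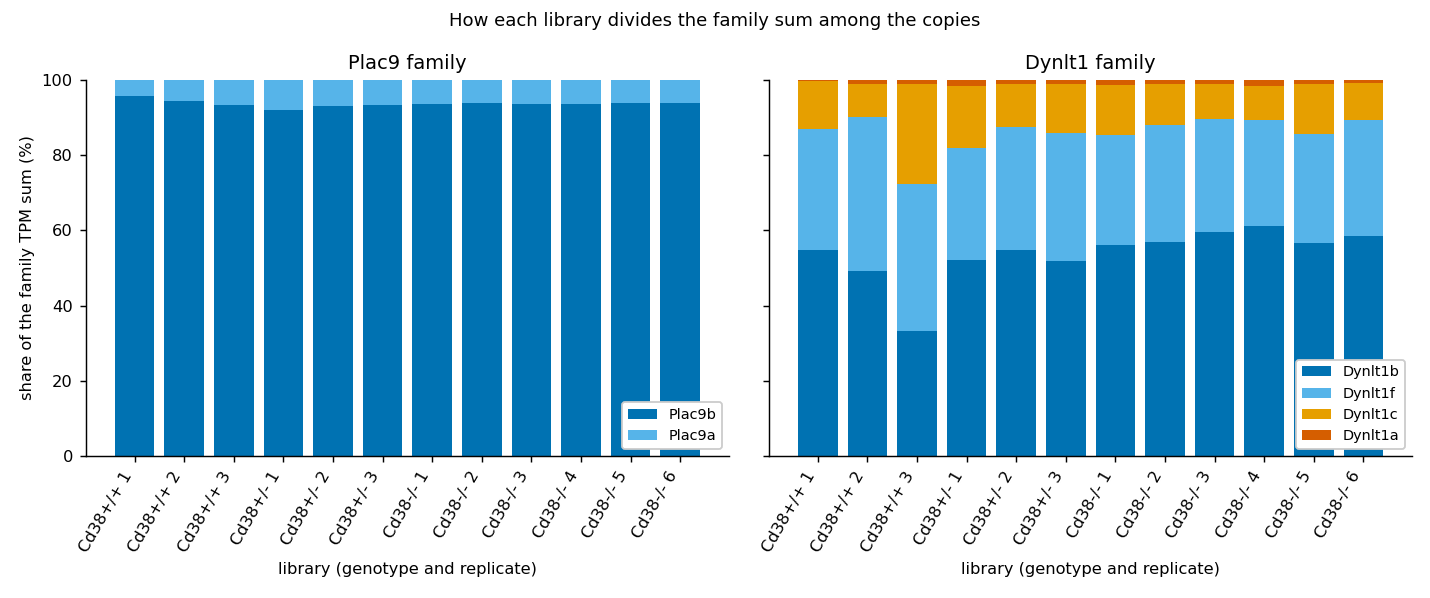
Share of the family TPM sum held by each copy (vertical axis, percent) in each of the 12 libraries. Plac9b holds 91.9 to 95.6% of its family in all libraries, while the Dynlt1b share runs from 33.1% in Cd38+/+ replicate 3 to 61.2% in Cd38-/-.

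The cilium gene Dynlrb2 was at 397, 565 and 931 TPM in Cd38+/+, 493, 435 and 511 TPM in Cd38+/- and 583 to 927 TPM (median 781) in Cd38-/-. Foxj1 was at 69.9, 109.9 and 201 TPM, at 162.5, 87.5 and 145 TPM, and at 111 to 234 TPM (median 155). Over the 12 libraries the log2 Plac9 sum had a Pearson r of 0.84 (Spearman rho 0.84) with Dynlrb2 and 0.45 (rho 0.50) with Foxj1. After each genotype was centred on its mean, r was 0.69 with Dynlrb2 and 0.40 with Foxj1, and within the 6 Cd38-/- libraries it was 0.78 and 0.43. Without the 2 libraries farthest from the median of the cilium gene, r was 0.88 and 0.34. The points share the cell isolation and the TPM scale, in which each library has the same total.

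The Dynlt1 sum also followed Dynlrb2 more closely than Foxj1 in value. Its r was 0.78 (rho 0.78) with Dynlrb2 and 0.39 (rho 0.46) with Foxj1 over 12 libraries, and 0.51 and 0.23 after centring. Within the 6 Cd38-/- libraries it was 0.985 with Dynlrb2, with the same rank order in both, and 0.055 with Foxj1. Without the 2 farthest libraries r was 0.63 and 0.098. The value with Dynlrb2 was 0.92 when Cd38+/+ replicate 3 was left out, a library with 931 TPM of Dynlrb2 and 344 TPM of the Dynlt1 sum. Among the copies, r with Dynlrb2 over 12 libraries was 0.90 for Plac9a, 0.84 for Plac9b, 0.72 for Dynlt1f, 0.70 for Dynlt1c, 0.61 for Dynlt1a and 0.46 for Dynlt1b. After centring, r was 0.84, 0.68, 0.59, 0.78 and 0.58 for these copies in the same order and -0.28 for Dynlt1b, the copy whose Cd38-/- libraries stood apart from all others. For Dynlt1b the centred rho was 0.084, and within the 6 Cd38-/- libraries r with Dynlrb2 was 0.89 (rho 0.94). Cd38+/+ replicate 3 had the lowest Dynlt1b level of all libraries (114 TPM) beside the highest Dynlrb2 level (931 TPM).

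**Figure D5:**
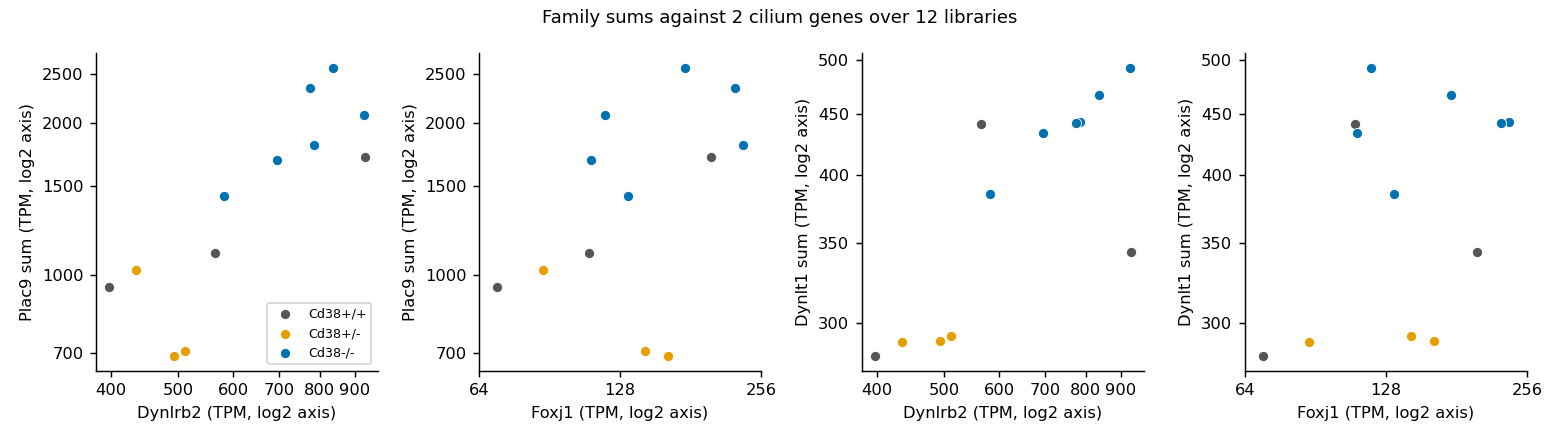
Family sums against Dynlrb2 and Foxj1 in 12 libraries, in TPM on log2 axes, coloured by genotype. The points lie along a common trend for Dynlrb2 (r 0.84 for Plac9 and 0.78 for Dynlt1) and are more scattered for Foxj1 (r 0.45 and 0.39).

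As a ratio, the Plac9 sum was 1.84 to 2.38 times the Dynlrb2 level in Cd38+/+, 1.38 to 2.35 times in Cd38+/- and 2.24 to 3.08 times in Cd38-/-. The Dynlt1 sum was 0.37 to 0.78, 0.57 to 0.66 and 0.53 to 0.66 times the Dynlrb2 level. Per unit of Dynlrb2 the ranges of the genotypes therefore overlapped in both families. For Plac9, only Cd38+/+ replicate 1 (2.38) and Cd38+/- replicate 2 (2.35) lay within the range of Cd38-/-. The medians of this ratio were 1.95 in Cd38+/+, 1.40 in Cd38+/- and 2.45 in Cd38-/-. Among 11839 genes, Dynlrb2 ranked 21 by r with the Plac9 sum and 56 by r with the Dynlt1 sum, and Foxj1 ranked 998 and 1605. These ranks hold the differences between genotypes. With each genotype centred, Dynlrb2 ranked 116 and 1900, and Foxj1 ranked 1819 and 3968. The 20 ependymal and motile cilium markers in the table had r above 0 with both sums, with medians of 0.69 and 0.64, while the median over all genes was 0.0050 and 0.012 and that of the 12 astrocyte markers -0.50 and -0.38. After centring, the cilium medians were 0.44 and 0.31, and those over all genes 0.0011 and -0.0059. Of the cilium markers, 95% and 80% then had r above 0. The 90th percentile of r over all genes was 0.42 and 0.44 before centring and 0.47 and 0.62 after it. The cilium medians were above this percentile before centring and below it after.

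Ependymal marker sums had their highest median in Cd38-/-, as had both family sums. The marker sums were 3667 to 7077 TPM (median 4475) in Cd38+/+, 3801 to 4884 TPM (median 4242) in Cd38+/- and 4878 to 7604 TPM (median 7001) in Cd38-/-. No marker of the list was at 0 in all libraries of a genotype. Between Cd38-/- and Cd38+/-, all 20 tested markers had a log2 difference above 0 (median 0.57), 12 had an unadjusted p under 0.05, as had 1299 of all 11563 genes, and 0 were called by limma. Against Cd38+/+, 3 of 20 were called in Cd38-/-, all higher, beside 8.28% of all genes, with a median of 0.57 beside 0.15 for all genes. For Cd38+/- against Cd38+/+, limma called 0 (0 at an unadjusted p under 0.05), with a median of -0.04. Of the astrocyte markers, all 12 had a log2 difference above 0 between Cd38+/- and Cd38+/+ (median 0.47, 6 at an unadjusted p under 0.05, 0 called by limma) and 1 of 12 between Cd38-/- and Cd38+/- (median -0.29, 6 at such a p, 0 called). The part of ependymal cells or of the astrocyte share in the levels of Plac9 and Dynlt1 was not tested.

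The genes whose pattern was most like the Plac9 sum over 12 libraries were Mia (r 0.90), Tmem254c (r 0.90), Hmgn2, Riiad1 and 1700012B09Rik (r 0.89 each). Tmem254c lies between Plac9a and Plac9b. After centring they were Bex3, Acyp1, Cdc34, Rasl10b and Cwc15, with r of 0.84 to 0.85. Those most like the Dynlt1 sum were Smim5 (r 0.93), Spata33 (r 0.90), Tcte3 (r 0.89), Ppp1r42 (r 0.89) and Ccpg1os (r 0.88), and after centring Arv1 (r 0.96), Pdcd6, Ccdc155, Gsto2 and Faim. Mia, the gene ranked first for Plac9, was at 294 ± 10.7, 235 ± 14.2 and 379 ± 55.2 TPM in Cd38+/+, Cd38+/- and Cd38-/- (SD, n = 3, 3 and 6). Smim5, ranked first for Dynlt1, was at 137 ± 40.5, 115 ± 17.7 and 179 ± 26.8 TPM. Both had the order of genotypes of the family sums, which their choice by r over the same libraries favours.

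DYNLT1 works within the dynein complex, so the other genes of dynein and of dynactin, its activator, were tested in the fit over all genes. Of a list of 37 genes, 0 of 35 tested were called between Cd38-/- and Cd38+/- (4 at an unadjusted p under 0.05), with a median log2 difference of 0.03. The 4 were Dync2li1 and Wdr34, subunits of the ciliary dynein-2, Tctex1d2, its Tctex-type light chain, and Dynll1, a light chain of dynein-1. Their log2 differences were 0.39 (SE 0.13), 0.31 (SE 0.12), 0.30 (SE 0.099) and 0.32 (SE 0.11), at q of 0.23 to 0.28 in limma. With library quality weights 8 genes of the list were called in this comparison, and 1 without Cd38-/- replicate 4.

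From Cd38+/+ to Cd38-/-, 2 of 36 tested genes were called, both higher, a smaller share than the 8.28% called among all genes. A log2 difference above 0 was seen for 20 of the 36, with a list median of 0.07 beside 0.15 for all genes. Bicd2, an adaptor that links dynein to vesicles and RNA, rose by 0.77 (SE 0.21; limma q = 0.0343), from 20.9 to 35.5 TPM in Cd38+/+ to 36.2 to 56.5 TPM in Cd38-/-. Nde1, a dynein regulator that binds LIS1, rose by 0.62 (SE 0.17; limma q = 0.0392), from 41.1 to 75.6 TPM to 83.2 to 94.5 TPM. Neither held in every setting: the count was 7 without Cd38+/+ replicate 2, 10 without Cd38+/+ replicate 3, 1 without Cd38-/- replicate 3 and 0 without Cd38-/- replicate 1, 2, 4, 5 or 6. For Cd38+/- against Cd38+/+, 0 of 36 were called (5 at an unadjusted p under 0.05), and 4 were when all 12 libraries were fitted together. Bicd2 differed there by 1.02 (SE 0.26; limma q = 0.18) and Nde1 by 0.67 (SE 0.24; limma q = 0.20).

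The other light chains of cytoplasmic dynein did not share the order of genotypes of Dynlt1 in a called difference. Dynll1, the LC8 light chain, was the most abundant, at 781 to 882 TPM in Cd38+/+, 536 to 654 TPM in Cd38+/- and 641 to 849.5 TPM in Cd38-/-. Dynlrb1, the other roadblock chain, was at 208 to 328 TPM and Dynll2 at 3.80 to 16.9 TPM over all libraries. Dynlt3, the second Tctex-type light chain, was at 41.8 to 65.8, 53.0 to 57.5 and 47.5 to 53.7 TPM, and its log2 difference between Cd38-/- and Cd38+/- was -0.17 (SE 0.089; limma q = 0.36). No call was made for any of the 4 in any comparison.

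The genes beside the members were examined because the copies lie in shared stretches of the genome. Of 14 genes of the table within 250 kb of a Plac9 copy, 10 were tested. Between Cd38-/- and Cd38+/+, 2 of the 10 were called, beside 8.28% of all genes. Tmem254a was higher by 0.73 (SE 0.21, limma q = 0.0423) and Tmem254b by 0.52 (SE 0.15, limma q = 0.0425). Both are copies of 1 family, and how far they share reads was not examined. A log2 difference above 0 was seen for 9 of the 10 and for 64.3% of all genes, with medians of 0.49 and 0.15. The 3 Tmem254 copies, small membrane protein genes interleaved with the Plac9 copies, summed to 345 to 504 TPM in Cd38+/+, 349.9 to 522 TPM in Cd38+/- and 518 to 697 TPM in Cd38-/-, with a slight overlap between the last 2 genotypes. Tmem254c differed by 0.55 (SE 0.13; limma q = 0.12) between Cd38-/- and Cd38+/-, a difference that was not called. Of 7 genes around the Dynlt1 copies, 6 were tested, and 5 of the 6 had a log2 difference above 0 between Cd38-/- and Cd38+/+ (median 0.42). Only Ezr was called there, beside 8.28% of all genes, and was higher by 0.72 (SE 0.19, limma q = 0.0352). Ezr encodes ezrin, which ties membranes to actin. The calls of Tmem254a, Tmem254b and Ezr were each kept in 3 of 9 fits without 1 library, and were lost in 5, 5 and 4 of the 11 other settings, the replicate block among them. The first 2 were lost without Cd38+/+ replicate 2 or Cd38-/- replicate 1, 2, 3, 5 or 6, and Ezr without Cd38+/+ replicate 1 or 2 or Cd38-/- replicate 1, 2, 5 or 6. In the other comparisons 0 neighbours were called. Of the genes nearest to Plac9b, Duxbl2 was at 0 to 21.3 TPM, and Tmem181a, which overlaps Dynlt1a, at 4.86 to 22.9 TPM over the 12 libraries.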

How the data were processed

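Astrocyte RNA of 12 mice was measured by SMART-Seq v4 low-input sequencing; the labels name polyA RNA, and the methods name rRNA depletion. The deposited values are TPM, which the authors made with Trim Galore 0.6.4 (bases under quality 30 removed), STAR 2.7.1a on mm10 and RSEM 1.2.28, 1 column per library, rounded to 2 decimals. The annotation was not given in the sources used here. TPM holds no counts, so depth is unknown, no counting interval is given and a value of 0 sets no upper limit.

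Here, genes with a mean TPM above 5 in a compared genotype were fitted as log2(TPM + 1) with limma 3.58.1 (eBayes with a trend, Storey q) under R 4.3.3; fold changes on this scale understate those of low genes. For family sums the copies were replaced by their sum. The fit was tested on simulated data. Named genes were the members, Foxj1, Dynlrb2, Cd38, called genes of the dynein list or its 5 with the smallest p per comparison, the other dynein light chains, table genes within 250 kb, and the 5 most alike by r. Members and lists were chosen with earlier results of these data known. Grouping followed the labels, and p-values measure only the spread between these libraries. Alternatives covered the pseudocount, filter, scaling, weights, adjustment, block and each library left out. Sequences came from GENCODE vM21 (20577 of 20614 genes matched) and RefSeq promoters.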

Additional observations from a re-analysis of the deposited data

How the results depend on the processing

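Log2 differences of both family sums kept their sign in all 90 alternatives and moved by less than 1 SD between replicates, as did the shares of the copies in 90 of 90. For Plac9 between Cd38-/- and Cd38+/-, the settings that kept all libraries gave 1.30 to 1.53, and for Dynlt1 0.57 to 0.66. The count of dynein and dynactin genes called was less stable. For Cd38-/- against Cd38+/+ (2 called) it was 1 with median-ratio scaling, 4 with quantile normalization, 0 with library quality weights, 1 without the eBayes trend, 0 with Benjamini-Hochberg adjustment, and 0 to 10 when 1 library was left out. For Cd38+/- against Cd38+/+ it was 4 with all 12 libraries in one fit, and between Cd38-/- and Cd38+/- 8 with quality weights and 0 to 1 when 1 library was left out; the cause was not tested. With the replicate number as a block it was 0 between Cd38-/- and Cd38+/+. Deviations of same-numbered libraries correlated at -0.32 to 0.50, and those of differently numbered libraries at -0.56 to 0.53. These ranges overlap and cannot show whether the numbers pair the libraries. Plac9b kept its call between Cd38-/- and Cd38+/- under the block and Dynlt1b lost both of its calls. Among the other settings Plac9b kept its call in 5 of 11, and Dynlt1b in 8 of 11 in either comparison. Correlations also moved: r of the Plac9 sum with Dynlrb2 was 0.81 with quantile normalization, 0.69 centred, 0.78 in Cd38-/- alone and 0.83 to 0.87 with 1 library left out, and with Foxj1 0.35 to 0.59 with 1 left out. For the Dynlt1 sum, r with Foxj1 was 0.25 with median-ratio scaling, 0.23 centred, 0.055 in Cd38-/- alone and 0.19 to 0.48 with 1 left out, and with Dynlrb2 0.51 centred, 0.985 in Cd38-/- alone and 0.72 to 0.92 with 1 left out. With 3 libraries in 2 of the genotypes, unknown depth and near-identical copies, small differences of single copies cannot be resolved.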

Other observations

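Further Tctex-type light chain genes were looked at after Tcte3 had appeared among the genes most like the Dynlt1 sum, so they were chosen after their values were seen. Tctex1d4 was at 250.3 ± 175 TPM (SD, n = 3) in Cd38+/+, 154 ± 19.2 TPM (SD, n = 3) in Cd38+/- and 235 ± 32.8 TPM (SD, n = 6) in Cd38-/-, and all Cd38-/- libraries (177 to 271 TPM) were above the Cd38+/- libraries (136 to 174 TPM). Tctex1d1 was at 48.1 ± 3.26, 33.8 ± 6.79 and 52.4 ± 7.01 TPM, again with Cd38-/- above Cd38+/- in every library. Tcte3 was at 12.5 ± 6.37, 10.6 ± 2.49 and 20.3 ± 4.83 TPM, with overlap between all genotypes. Between Cd38-/- and Cd38+/- the log2 differences were 0.60 (SE 0.13; limma q = 0.11) for Tctex1d4, 0.62 (SE 0.15; limma q = 0.14) for Tctex1d1 and 0.87 (SE 0.22; limma q = 0.15) for Tcte3, none of which was called. Dynlt3, the light chain of the same type in cytoplasmic dynein, stood at -0.17 in that comparison.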
